A study of Mus musculus with 12 samples.

Results

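The immediate early and Krüppel-like factors described here are 10 transcription factor genes, *Klf2*, *Klf4*, *Klf6*, *Egr1*, *Fos*, *Fosb*, *Fosl1*, *Jun*, *Junb* and *Atf3*, chosen by name from the 54352 gene symbols of the count table. RNA was sequenced from cultured adventitial fibroblasts, which build the collagen-rich outer coat of an artery, grown from the ascending and the descending aorta of WT C57Bl/6 mice. The 12 libraries form 4 groups of 3, which are descending control, descending TGFβ, ascending control and ascending TGFβ. Control cultures received the solute alone and the others 10 ng/mL mouse TGFβ for 48 h, at about the same confluence and in medium with serum, and all carry the label of a single batch. The sample labels give an age of 14 weeks and 1 passage, whereas the study's text also gives 12 weeks, 6 mice and 3 passages, and it is not stated which cultures share animals. The p-values therefore measure the spread between these cultures, which may be partly technical. All 10 genes passed the low-count filter in every comparison.

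Immediate early genes are transcribed within minutes of a serum, growth factor, mechanical or stress signal, without new protein synthesis, and their messages are short-lived. FOS proteins pair with JUN proteins to form AP-1, a DNA-binding dimer whose composition changes with the signal, and ATF3 is a stress-induced member of the same bZIP class that can pair with JUN proteins. EGR1 and the Krüppel-like factors are zinc finger proteins that bind GC-rich promoter sequences. In vessels, KLF2 and KLF4 are best known as flow-induced factors of the endothelium and KLF4 also as a regulator of the smooth muscle cell state, while KLF6 and AP-1 are linked to wound repair and matrix genes. The cultures were sampled after 48 h of TGFβ, so the values are levels at that time and not an early induction.

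RefSeq promoter windows were at hand for 8 of the 10 genes, on build GRCm38.p6, and the 250 bases before the annotated start were searched on both strands. The windows of *Klf4*, *Junb* and *Atf3* are shown because these genes had the 3 largest changes with TGFβ in ascending fibroblasts. Each is written 5′ to 3′ along the gene, with every match to a searched motif in capitals, and the window of *Atf3* lies before an internal start of the GENCODE gene model.
Klf4, chr4:55532476-55532725, minus strand: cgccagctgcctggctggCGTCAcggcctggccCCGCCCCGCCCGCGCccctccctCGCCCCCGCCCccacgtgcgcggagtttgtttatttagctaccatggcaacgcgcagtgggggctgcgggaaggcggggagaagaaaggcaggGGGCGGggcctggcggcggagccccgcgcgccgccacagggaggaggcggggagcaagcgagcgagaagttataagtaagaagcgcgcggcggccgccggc
Junb, chr8:84978749-84978998, minus strand: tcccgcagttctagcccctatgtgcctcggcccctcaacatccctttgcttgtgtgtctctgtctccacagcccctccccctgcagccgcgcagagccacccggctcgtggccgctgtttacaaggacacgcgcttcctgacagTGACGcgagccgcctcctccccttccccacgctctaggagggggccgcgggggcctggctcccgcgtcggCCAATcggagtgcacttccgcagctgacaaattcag
Atf3, chr1:191183334-191183583, minus strand: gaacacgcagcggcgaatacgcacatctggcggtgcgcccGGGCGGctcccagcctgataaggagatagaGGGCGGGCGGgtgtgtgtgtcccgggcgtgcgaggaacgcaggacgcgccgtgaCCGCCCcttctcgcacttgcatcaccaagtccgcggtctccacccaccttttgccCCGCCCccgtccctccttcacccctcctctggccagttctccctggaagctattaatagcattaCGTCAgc
The GC box, GGGCGG, which Krüppel-like and related factors bind, was found in 7 of the 8 windows, with *Junb* as the exception, and in 32.7% of the 32851 promoter windows of the same length. The EGR site, GCGNGGGCG, was found in *Klf2*, *Klf4* and *Fosb* and in 4.7% of all windows, and it can overlap a GC box. The CRE core, TGACG, was found in *Klf2*, *Klf4*, *Fos*, *Fosb*, *Junb* and *Atf3*, and in 17.8% of all windows. The CCAAT box, CCAAT, was found in *Klf6*, *Jun* and *Junb* and in 33.8% of all windows, and the TATA box, TATAAA, in *Fos* and in 12.4%. None of the 8 windows held the AP-1 site TGANTCA, found in 6.75% of all windows, the full CRE TGACGTCA, in 1.55%, the CACCC box CCACACCC, in 3.2%, the SMAD palindrome GTCTAGAC, in 0.167%, or a CArG box, in 1.47%. A match describes the letters of a window and not a bound site.

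Libraries held 16250126 to 23892943 counts. Descending control replicate 3 stood apart, with 13031 genes detected where the other 11 libraries had 19337 to 20931, and with a mitochondrial share of counts of 11.02% where the others had 0.703 to 1.03%. The comparisons of the 10 genes that use it are therefore given with it and without it. The 10 fibroblast markers summed to 14161 to 26372 normalized CPM (CPM, counts relative to the TMM-scaled total of the library), and the 8 endothelial markers to 8.40 to 28.1. Of the endothelial sum *Tek* gave 24.3 ± 1.24 normalized CPM (SD, n = 3) in the ascending controls and 4.13 ± 0.572 with TGFβ, and 24.1 ± 0.613 and 8.60 ± 0.790 at the descending site. *Erg* was at 0.0809 ± 0.105 and 3.92 ± 1.21 in the ascending groups, and at 0 in each descending control and 3.13 ± 0.592 with TGFβ. *Tie1* was at 0 in every library. The 8 macrophage markers summed to 359 normalized CPM in ascending control replicate 2 and to 56.2 and 59.8 in the other ascending controls. In the remaining groups they summed to 15.3 to 50.04 normalized CPM. In bulk RNA, fewer cells of a type and less RNA per cell cannot be told apart.

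**Figure D1:**
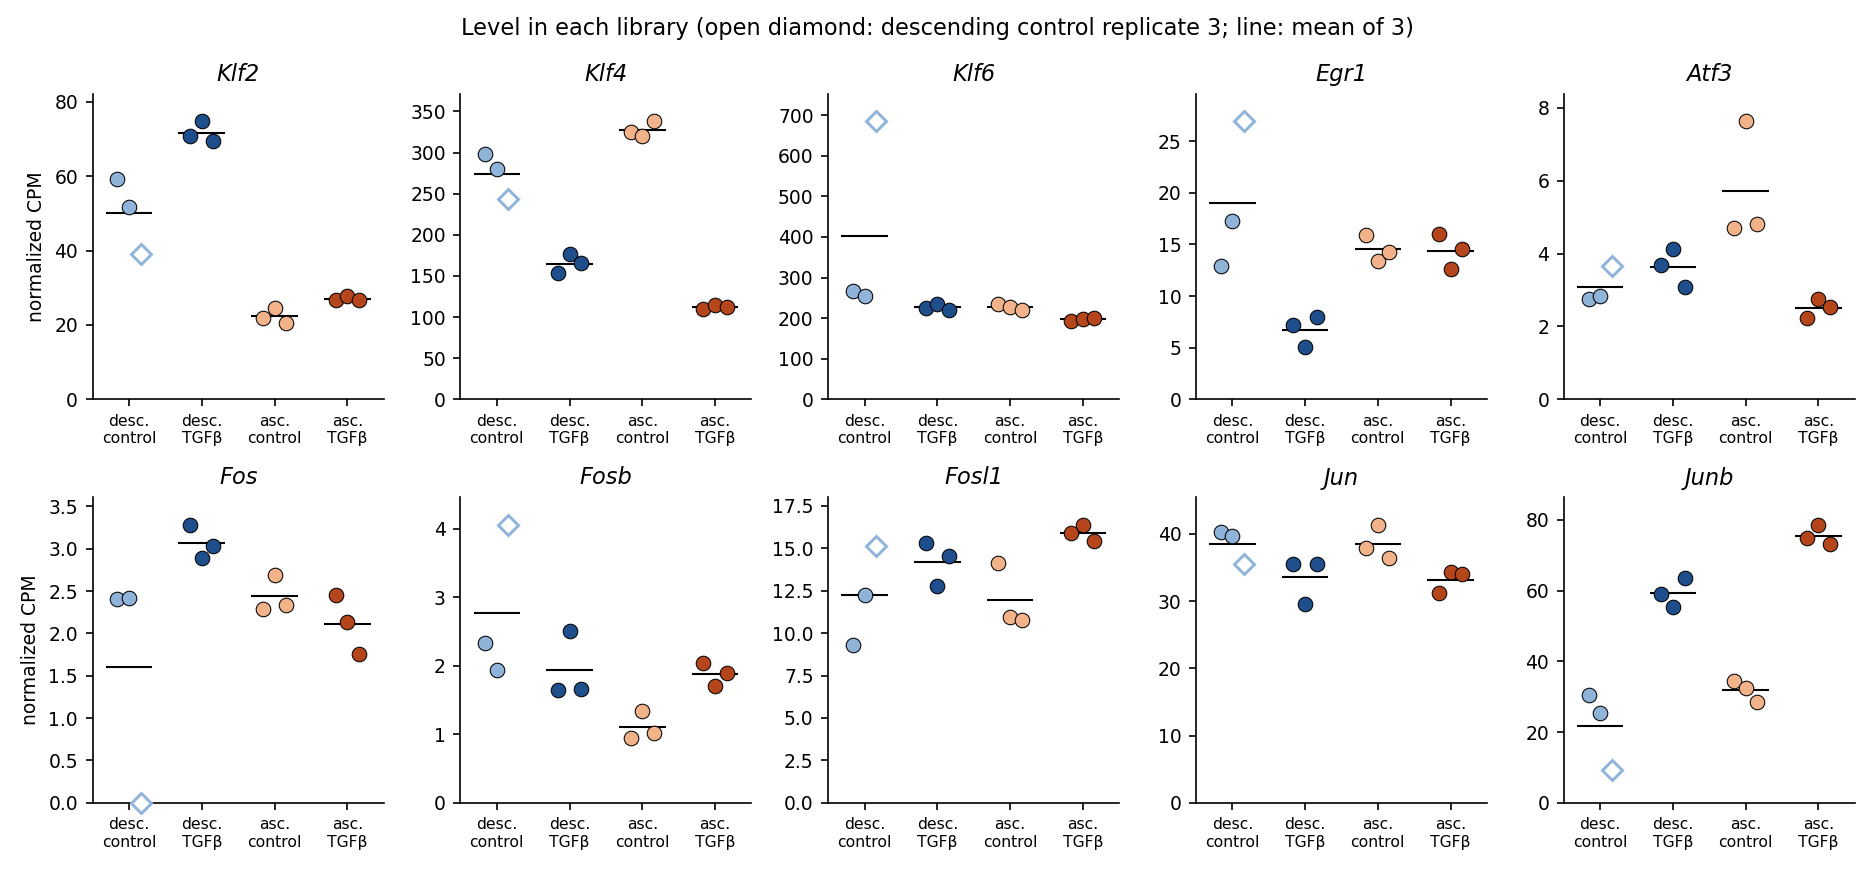
Level of each of the 10 genes in normalized CPM (vertical axes, each starting at 0) in each of the 12 libraries, by group, with the mean of 3 as a line and descending control replicate 3 as an open diamond. Klf4 was lower in every TGFβ library than in every control library and Junb was higher, while the diamond lies outside the other descending controls for each gene.

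In ascending fibroblasts, 8 of the 10 genes passed the test for a change with TGFβ, where 55.8% of the 13917 genes tested did, 28.2% upward and 27.6% downward. *Klf2*, *Fosb*, *Fosl1* and *Junb* rose, *Klf4*, *Klf6*, *Jun* and *Atf3* fell, and *Egr1* and *Fos* did not pass. With the 12 libraries in one fit the calls of *Klf2*, *Klf6*, *Fosb*, *Fosl1* and *Jun* were lost (adjusted p = 0.190 to 0.782). For the 8 that passed, the TGFβ and control libraries did not overlap, which held for 61.6% of all genes tested. The median log2 fold change of the 10 genes was -0.12 and that of all genes tested -0.004. A change in some direction was thus common in these cultures, and the genes differ among themselves in direction and size. Of the cell type markers, 3 of 10 fibroblast markers rose and 7 fell, and 6 of 8 smooth muscle markers rose and 2 fell. Of the macrophage markers tested 7 of 7 fell, and of the mesothelial ones 2 of 4 fell and none rose. The part of these lists in the changes of the 10 genes was not tested.

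In descending fibroblasts, 1 of the 10 genes, *Klf4*, passed with the 6 libraries and fell, where 8.07% of 13825 genes passed, 3.59% upward and 4.48% downward. Without descending control replicate 3, 7 passed, where 52.9% of 14311 genes did, 26.6% upward and 26.3% downward. In that fit of 3 against 2 libraries *Klf2*, *Fosl1* and *Junb* rose and *Klf4*, *Klf6*, *Egr1* and *Jun* fell, while *Fos*, *Fosb* and *Atf3* did not pass. With the 6 libraries the groups did not overlap for 6 of the 10 genes, against 43.4% of all genes, and without the doubted library for 9, against 67% of all genes. Of 10 fibroblast markers 2 rose and 5 fell with the 6 libraries, and 3 rose and 7 fell without control replicate 3. Of 8 smooth muscle markers 3 rose and 0 fell with the 6 libraries, and 7 rose and 1 fell without that replicate. The part of these markers was not tested. The sections that follow give the genes by family.

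Of the Krüppel-like factors, *Klf4* lies on chromosome 4 of GRCm38 from 55527143 to 55532466, on the minus strand. Its level was 325, 319.8 and 338 normalized CPM in the ascending controls and 109.7, 114 and 112 in the ascending TGFβ libraries. It was 298, 280.4 and 244 in the descending controls and 153, 176 and 165 with TGFβ. At both sites every TGFβ library lay below every control library, and the ascending group went from the highest level of the 4 groups to the lowest. The change was -1.56 on the log2 scale in ascending fibroblasts (SE 0.03, adjusted p = 9.17e-16), a 2.95-fold fall. In descending fibroblasts it was -0.75 (SE 0.12, adjusted p = 0.0191), and -0.81 (SE 0.05, adjusted p = 1.23e-13) without control replicate 3, a 1.75-fold fall. The difference between these changes, tested as the interaction of site and TGFβ over the 12 libraries, was -0.81 (SE 0.12, adjusted p = 0.0146), so that *Klf4* fell further in ascending fibroblasts. *Klf4* was the single gene of the 10 called in that test, which called 0.806% of 14637 genes, 0.321% with a more positive and 0.485% with a more negative change in ascending fibroblasts. Without descending control replicate 3 the difference was -0.75 (SE 0.07, adjusted p = 1.48e-08). The interaction kept its direction but was not called, at adjusted p = 0.0568 to 0.0698, with descending TGFβ replicate 2 or 3, ascending control replicate 1 or 3, or any ascending TGFβ replicate left out. The descending change of *Klf4* was not called with any library other than control replicate 3 left out (log2 values -0.79 to -0.69, adjusted p = 0.0809 to 0.152).

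*Klf2*, on chromosome 8 from 72319033 to 72321656, had the largest difference between sites of the 10 genes with TGFβ. Its level was 59.1, 51.8 and 39.0 normalized CPM in the descending controls, and 70.7, 74.7 and 69.6 with TGFβ. In ascending fibroblasts it was 21.97, 24.6 and 20.6 in the controls and 26.8, 27.7 and 26.8 with TGFβ. Every descending library lay above every ascending library, whichever the treatment, and at each site every TGFβ library lay above every control library. The rise with TGFβ was 0.27 on the log2 scale in ascending fibroblasts (SE 0.07, adjusted p = 0.00388). In descending fibroblasts the value was 0.50 with the 6 libraries (SE 0.17, adjusted p = 0.136) and 0.37 without control replicate 3 (SE 0.06, adjusted p = 1.35e-05). The interaction was -0.24 with the 12 libraries (95% interval -0.65 to 0.17, adjusted p = 0.623) and -0.10 without that replicate (95% interval -0.30 to 0.10).

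*Klf6*, on chromosome 13 from 5861482 to 5870394, had a change with TGFβ in ascending fibroblasts close in size to those of *Jun* and *Klf2*. It was at 234, 227 and 221 normalized CPM in the ascending controls and at 192, 198 and 199.8 with TGFβ. The descending controls were at 267, 254 and 685 and the descending TGFβ libraries at 224, 235 and 221. The value of 685 belongs to descending control replicate 3, and no other library of the 12 was above 267. The change with TGFβ was -0.22 on the log2 scale in ascending fibroblasts (SE 0.03, adjusted p = 4.25e-05). In descending fibroblasts it was -0.86 with the 6 libraries (SE 0.42, adjusted p = 0.291) and -0.20 without that replicate (SE 0.05, adjusted p = 0.00136). The interaction was 0.63 with the 12 libraries (SE 0.44, adjusted p = 0.603) and -0.02 without that replicate (SE 0.06, adjusted p = 0.906).

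*Egr1*, on chromosome 18, encodes the zinc finger factor whose transcription follows serum response factor and ERK signals. Its level was 15.96, 13.4 and 14.2 normalized CPM in the ascending controls and 15.97, 12.6 and 14.6 with TGFβ. In the descending controls it was 12.9, 17.2 and 26.9, and with TGFβ it was 7.18, 5.06 and 7.92. The range of the ascending controls lay within that of the ascending TGFβ libraries, whereas every descending TGFβ library lay below every other library of the series. The log2 fold change with TGFβ was -0.03 in ascending fibroblasts (95% interval -0.24 to 0.18, adjusted p = 0.837). In descending fibroblasts it was -1.52 with the 6 libraries (SE 0.35, adjusted p = 0.0531) and -1.15 without control replicate 3 (SE 0.15, adjusted p = 1.41e-07), a 2.22-fold fall. DESeq2 called the change on the 6 descending libraries (adjusted p = 0.00198). The interaction was 1.49 with the 12 libraries (SE 0.37, adjusted p = 0.125) and 1.13 without that replicate (SE 0.20, adjusted p = 2.36e-04).

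**Figure D2:**
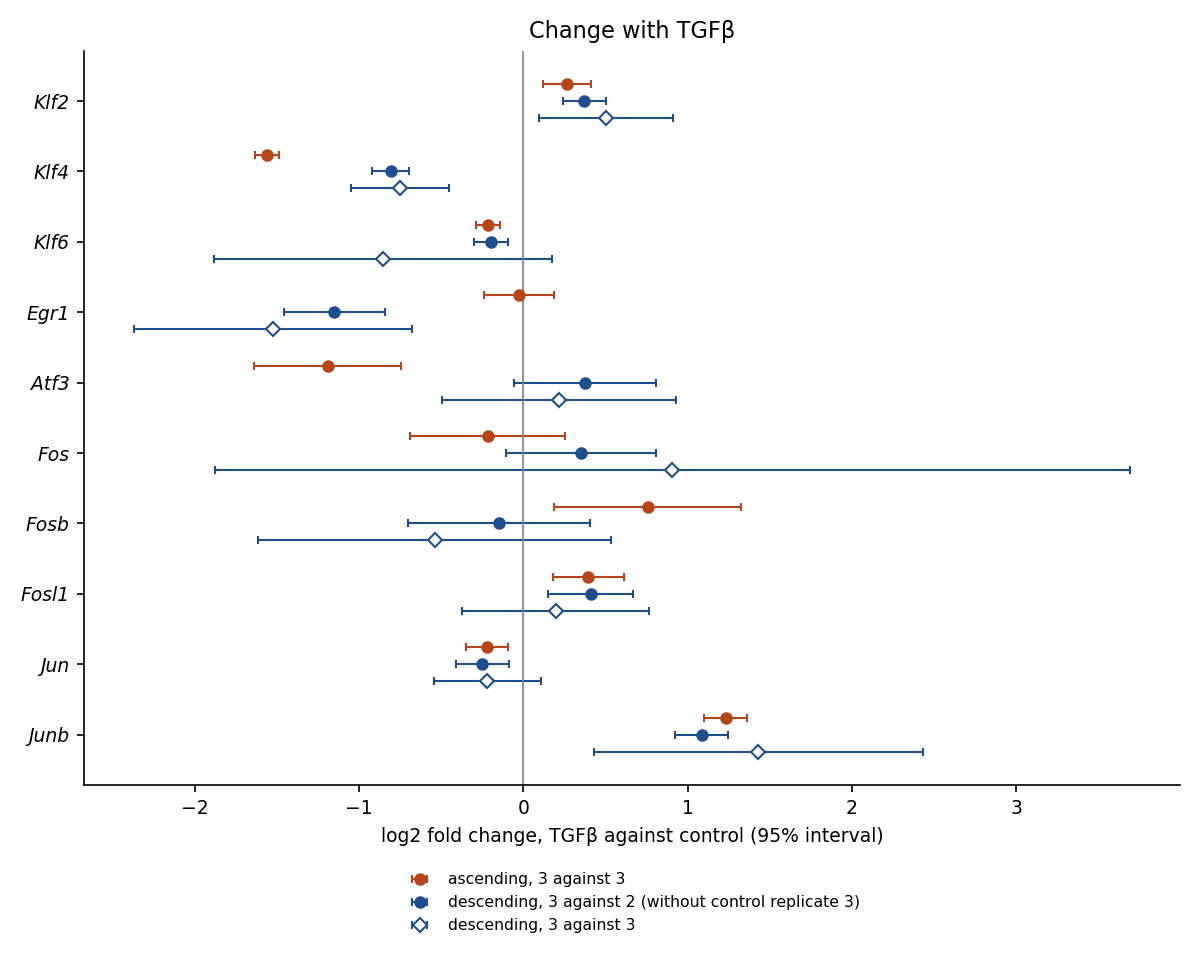
Log2 fold change with TGFβ of each of the 10 genes with its 95% interval, in ascending fibroblasts (3 against 3), in descending fibroblasts without control replicate 3 (3 against 2) and in descending fibroblasts with it (open diamonds). Junb lies on the right and Klf4 on the left at both sites, whereas the ascending and descending points of Egr1 and of Atf3 lie apart, and the open diamonds have the widest intervals.

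Of the JUN genes, *Junb*, on chromosome 8 from 84974484 to 84978718, encodes a JUN protein that can oppose JUN at some targets. Its level was 34.5, 32.5 and 28.5 normalized CPM in the ascending controls and 74.7, 78.6 and 73.2 with TGFβ. In the descending controls it was 30.5, 25.5 and 9.34, and with TGFβ it was 58.9, 55.4 and 63.6. Every TGFβ library was above every control library at both sites, and every ascending TGFβ library was above every descending TGFβ library. The rise was 1.23 on the log2 scale in ascending fibroblasts (SE 0.06, adjusted p = 3.25e-11), a 2.35-fold increase. In descending fibroblasts it was 1.43 with the 6 libraries (SE 0.41, adjusted p = 0.0985) and 1.09 without control replicate 3 (SE 0.08, adjusted p = 7.89e-13), a 2.12-fold increase. DESeq2 called the rise on the 6 descending libraries (adjusted p = 0.0099). The interaction was -0.19 with the 12 libraries (95% interval -1.15 to 0.76) and 0.15 without that replicate (95% interval -0.07 to 0.37), with adjusted p = 0.837 and 0.420. *Junb* overlaps *Prdx2* on the opposite strand and shares 5.76% of its 50-base exon sequences with it, and the strand setting of the counting is not stated. The log2 fold change of *Prdx2* with TGFβ was -0.001 in ascending fibroblasts (adjusted p = 0.984), and 0.36 with the 6 descending libraries (adjusted p = 0.601) or 0.04 without control replicate 3 (adjusted p = 0.584). *Prdx2* was higher in ascending than in descending fibroblasts with TGFβ, by 0.23 (SE 0.04, adjusted p = 1.98e-05), and in controls without descending replicate 3, by 0.27 (SE 0.05, adjusted p = 7.81e-04), while with the 6 control libraries the difference was 0.60 (adjusted p = 0.521).

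*Jun*, on chromosome 4 from 95049034 to 95052222, moved less than *Junb*. It was at 37.9, 41.3 and 36.3 normalized CPM in the ascending controls and at 31.2, 34.3 and 34.1 with TGFβ. The descending controls were at 40.3, 39.6 and 35.6 and the descending TGFβ libraries at 35.5, 29.5 and 35.6. In ascending fibroblasts the groups did not overlap, and in descending fibroblasts they overlapped only through control replicate 3. The log2 fold change was -0.22 in ascending fibroblasts (SE 0.06, adjusted p = 0.00504), and -0.22 with the 6 descending libraries (SE 0.13, adjusted p = 0.383) or -0.25 without that replicate (SE 0.08, adjusted p = 0.0091). The interaction was -0.01 with the 12 libraries (SE 0.14, adjusted p = 0.981) and 0.03 without that replicate (SE 0.10, adjusted p = 0.907). *Jun* overlaps the antisense transcript *Junos*, which had 14 to 35 counts per library against 526 to 1020 for *Jun*.

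Of the FOS genes, *Fos* and *Fosb* were low. *Fos*, on chromosome 12 from 85473890 to 85477273, had 36 to 64 counts in 11 libraries and 0 in descending control replicate 3, which allows up to 0.203 normalized CPM there (3 counts, counting error only). Its level was 2.29, 2.69 and 2.33 normalized CPM in the ascending controls and 2.45, 2.13 and 1.75 with TGFβ. It was 2.41 in each of the other descending controls and 3.28, 2.89 and 3.04 with TGFβ. The log2 fold change with TGFβ was -0.22 in ascending fibroblasts (95% interval -0.69 to 0.25, adjusted p = 0.431) and 0.35 in descending fibroblasts without control replicate 3 (95% interval -0.11 to 0.81, adjusted p = 0.194). With that replicate the value was 0.91 (SE 1.14, adjusted p = 0.678). The interaction was -1.10 with the 12 libraries (SE 1.08, adjusted p = 0.688) and -0.56 without that replicate (SE 0.30, adjusted p = 0.264). *Fos* passed in none of the 5 comparisons, with or without that replicate.

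*Fosb*, on chromosome 7 from 19302696 to 19310051, had 21 to 60 counts per library. It was at 0.951, 1.35 and 1.02 normalized CPM in the ascending controls and at 2.04, 1.70 and 1.90 with TGFβ. The descending controls were at 2.33, 1.94 and 4.06 and the descending TGFβ libraries at 1.64, 2.50 and 1.66. The ascending controls were thus the 3 lowest libraries, and the descending groups overlapped. The rise in ascending fibroblasts was 0.76 on the log2 scale (SE 0.27, adjusted p = 0.025), which DESeq2 did not call (adjusted p = 0.0999). It was also not called with ascending control replicate 1 or 3 or ascending TGFβ replicate 1 or 3 left out (adjusted p = 0.0592 to 0.0860). In descending fibroblasts the values were -0.54 (SE 0.44, adjusted p = 0.508) and, without control replicate 3, -0.15 (SE 0.27, adjusted p = 0.674). The interaction was 1.29 (SE 0.48, adjusted p = 0.387), and 0.91 (SE 0.39, adjusted p = 0.139) without that replicate.

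*Fosl1*, on chromosome 19 from 5447547 to 5455946, encodes the FOS-related protein FRA-1. It was at 14.1, 10.97 and 10.8 normalized CPM in the ascending controls and at 15.9, 16.4 and 15.5 with TGFβ. The descending controls were at 9.28, 12.2 and 15.2 and the descending TGFβ libraries at 15.3, 12.8 and 14.6. The ascending groups did not overlap, and the descending groups overlapped only through control replicate 3. The rise was 0.40 on the log2 scale in ascending fibroblasts (SE 0.10, adjusted p = 0.00358). In descending fibroblasts the value was 0.20 (SE 0.23, adjusted p = 0.661), and 0.41 without that replicate (SE 0.13, adjusted p = 0.00697). The interaction was 0.20 with the 12 libraries (SE 0.27, adjusted p = 0.751) and -0.01 without that replicate (SE 0.17, adjusted p = 0.986). *Fosl1* shares 52.6% of its 50-base exon sequences with *Ccdc85b* on the opposite strand and the strand setting of the counting is not stated, so that the reads of these genes may not be fully told apart. The log2 fold change of *Ccdc85b* with TGFβ was -0.18 in ascending fibroblasts (adjusted p = 0.0274) and -0.07 in descending fibroblasts without control replicate 3 (adjusted p = 0.465), where *Fosl1* rose. With the 6 descending libraries it was 0.44 (SE 0.77, adjusted p = 0.769). *Ccdc85b* was lower in ascending than in descending fibroblasts with TGFβ, at -0.39 (adjusted p = 1.28e-05). In controls it was at -0.28 without descending replicate 3 (adjusted p = 0.00686) and at 0.23 with the 6 libraries (adjusted p = 0.887). The part of *Ccdc85b* in the values of *Fosl1*, with TGFβ or between sites, was not tested.

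*Atf3*, on chromosome 1 from 191170296 to 191218039, had 43 to 153 counts per library. Its level was 4.71, 7.63 and 4.81 normalized CPM in the ascending controls and 2.24, 2.75 and 2.53 with TGFβ. The descending controls were at 2.77, 2.84 and 3.65 and the descending TGFβ libraries at 3.69, 4.14 and 3.08. The ascending controls were the 3 highest libraries and the ascending TGFβ libraries the 3 lowest. The change was -1.19 on the log2 scale in ascending fibroblasts (SE 0.21, adjusted p = 1.36e-04), a 2.28-fold fall. In descending fibroblasts it was 0.22 (SE 0.29, adjusted p = 0.700), and 0.37 without control replicate 3 (SE 0.21, adjusted p = 0.142). The interaction was -1.42 with the 12 libraries (SE 0.35, adjusted p = 0.117) and -1.56 without that replicate (SE 0.31, adjusted p = 7.52e-04). Ascending control replicate 2, the library with the highest macrophage marker sum, also had the highest *Atf3*. In ascending fibroblasts 7 of the 7 macrophage markers tested were lower with TGFβ, and DESeq2 called 6 of the list lower. Without ascending control replicate 2 the change of *Atf3* was -0.93 (SE 0.20, adjusted p = 2.76e-04). Without that library and descending control replicate 3 the interaction was -1.30 (SE 0.28, adjusted p = 0.00127). The macrophage sums of the other ascending controls, 56.2 and 59.8 normalized CPM, were also above those of the ascending TGFβ libraries, 30.6 to 43.4. The part of macrophage RNA in the fall of *Atf3* was not tested.

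Without descending control replicate 3, the interaction called 3 of the 10 genes, *Klf4*, *Egr1* and *Atf3*, where 13.5% of 15013 genes were called, 6.07% positive and 7.4% negative. *Klf4* fell at both sites and further in ascending fibroblasts, *Egr1* fell in descending fibroblasts and did not pass in ascending ones, and *Atf3* fell in ascending fibroblasts and did not pass in descending ones. The same 3 genes were those with the lowest adjusted p in edgeR's fit of the 12 libraries, where *Egr1* and *Atf3* did not pass. DESeq2 called these 3 genes on the 12 libraries, *Klf4* at -0.82 (adjusted p = 1.06e-08), *Egr1* at 1.49 (adjusted p = 0.0148) and *Atf3* at -1.44 (adjusted p = 0.0129).

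The difference between sites was tested within each treatment. In control fibroblasts 1 of the 10 genes, *Klf2*, passed with the 6 libraries, where 2.65% of 14090 genes did, 1.19% higher and 1.47% lower in ascending fibroblasts. Without descending control replicate 3, 5 passed, where 31.6% of 14644 genes did, 16.4% higher and 15.2% lower. The groups did not overlap for 5 of the 10 genes with that replicate, against 35% of all genes, and for 5 without it, against 54.3%. *Klf2* was lower in ascending controls, with a log2 fold difference of -1.15 (SE 0.18, adjusted p = 0.0339), and of -1.29 without the replicate (SE 0.08, adjusted p = 1.84e-08), a 2.44-fold difference. That call on the 6 libraries was lost with any library other than descending replicate 3 left out (log2 values -1.22 to -1.03, adjusted p = 0.120 to 0.252). In the fit without it, *Klf6*, at -0.17 (adjusted p = 0.00623), and *Fosb*, at -0.93 (adjusted p = 0.0247), were also lower in ascending fibroblasts. In the same fit *Klf4*, at 0.20 (adjusted p = 0.00174), and *Atf3*, at 1.05 (SE 0.23, adjusted p = 0.00347), were higher, and *Atf3* was at 0.78 (adjusted p = 0.00479) when ascending control replicate 2 was left out too. With the 6 libraries those 4 did not pass, *Klf6* at -0.83 (adjusted p = 0.484), *Fosb* at -1.32 (adjusted p = 0.286), *Klf4* at 0.26 (adjusted p = 0.396) and *Atf3* at 0.89 (adjusted p = 0.302). The other 5 genes passed in neither fit. *Junb* was at 0.56 with the 6 libraries (SE 0.41, adjusted p = 0.565) and at 0.21 without the replicate (SE 0.09, adjusted p = 0.0944). *Egr1* was at -0.39 and -0.03 in these fits (adjusted p = 0.582 and 0.904), and *Fos* at 0.60 and 0.04 (adjusted p = 0.811 and 0.923). *Fosl1* was at -0.03 and 0.18 (adjusted p = 0.956 and 0.407), and *Jun* at 0.01 and -0.03 (adjusted p = 0.984 and 0.772). Marker sums of other cell types also differed between the control groups. The 4 adipocyte markers summed to 22.7 to 30.04 normalized CPM in descending and 0.908 to 4.99 in ascending controls, the 8 smooth muscle markers to 2494 to 2609 and 1595 to 1701, and the 5 mesothelial markers to 6.76 to 13.1 and 33.5 to 43.97. The macrophage markers summed to 27.0 to 50.04 in descending and 56.2 to 359 in ascending controls, and the fibroblast markers to 14161 to 15634 and 16156 to 17070. The ranges of these 5 lists did not overlap, and those of the endothelial markers did (23.5 to 26.6 and 24.3 to 28.1). Descending replicate 3 gave the lower limits of the descending mesothelial and macrophage sums. The other descending controls were at 13.0 and 13.1 for the mesothelial and at 42.6 and 50.04 for the macrophage markers. The 4 Schwann cell markers summed to 14.7, 17.5 and, in replicate 3, 24.3 in descending controls and to 21.4 to 25.9 in ascending ones, so that they overlapped only through replicate 3. The Schwann cell marker *Sox10* was at 0 in every descending library and at 2.04 to 2.49 in the ascending controls. The fibroblast markers did not move together, since without replicate 3, 3 were higher and 5 lower in ascending controls, with *Col3a1* at 1.32 (adjusted p = 6.19e-12), *Pdgfra* at -1.02 (adjusted p = 2.16e-10) and *Thy1* at -0.71 (adjusted p = 1.07e-09). With the 6 libraries *Col3a1* was the single one higher and *Pdgfra* the single one lower. The part of these lists in the site differences was not tested.

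With TGFβ, where neither doubted library enters, 6 of the 10 genes differed between sites, and 36.3% of 13678 genes did, 18.1% higher and 18.2% lower in ascending fibroblasts. The groups did not overlap for 8 of the 10, against 46.1% of all genes. *Klf2*, at -1.39 on the log2 scale (SE 0.06, adjusted p = 2.87e-18), *Klf4*, at -0.55 (SE 0.05, adjusted p = 5.41e-11), and *Klf6*, at -0.20 (SE 0.04, adjusted p = 1.73e-04), were lower in ascending fibroblasts, so that the 3 Krüppel-like factors had the same direction here. *Atf3* was also lower, at -0.52 (SE 0.20, adjusted p = 0.0427), a call that DESeq2 did not make (adjusted p = 0.149) and that was lost with replicate 1 or 2 of the descending or replicate 1 or 3 of the ascending TGFβ libraries left out (adjusted p = 0.0810 to 0.159). *Egr1*, at 1.09 (SE 0.13, adjusted p = 7.03e-08), and *Junb*, at 0.35 (SE 0.05, adjusted p = 2.73e-06), were higher in ascending fibroblasts. The calls of *Klf6*, *Junb* and *Atf3* were lost with the 12 libraries in one fit (adjusted p = 0.340 to 0.997). For *Junb* this is also the direction of *Prdx2*, whose part in the difference was not tested. *Fos*, at -0.53 (95% interval -0.97 to -0.09, adjusted p = 0.0524), *Fosl1*, at 0.17, *Fosb*, at -0.03, and *Jun*, at -0.01 (95% interval -0.15 to 0.14), did not pass. With TGFβ the adipocyte markers summed to 9.77 to 18.6 normalized CPM in descending and 0.0474 to 0.574 in ascending fibroblasts, the smooth muscle markers to 8026 to 8466 and 5136 to 5222, and the mesothelial markers to 12.3 to 13.95 and 19.7 to 26.5. The macrophage markers summed to 15.3 to 28.3 in descending and 30.6 to 43.4 in ascending fibroblasts, the Schwann cell markers to 10.8 to 12.2 and 14.9 to 15.7, the endothelial markers to 12.52 to 15.1 and 8.40 to 10.4, and the fibroblast markers, of which 4 were higher and 6 lower in ascending fibroblasts, to 24203 to 26372 and 20958 to 21073. The ranges of these 7 lists did not overlap between sites, and their part in the differences was not tested.

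**Figure D3:**
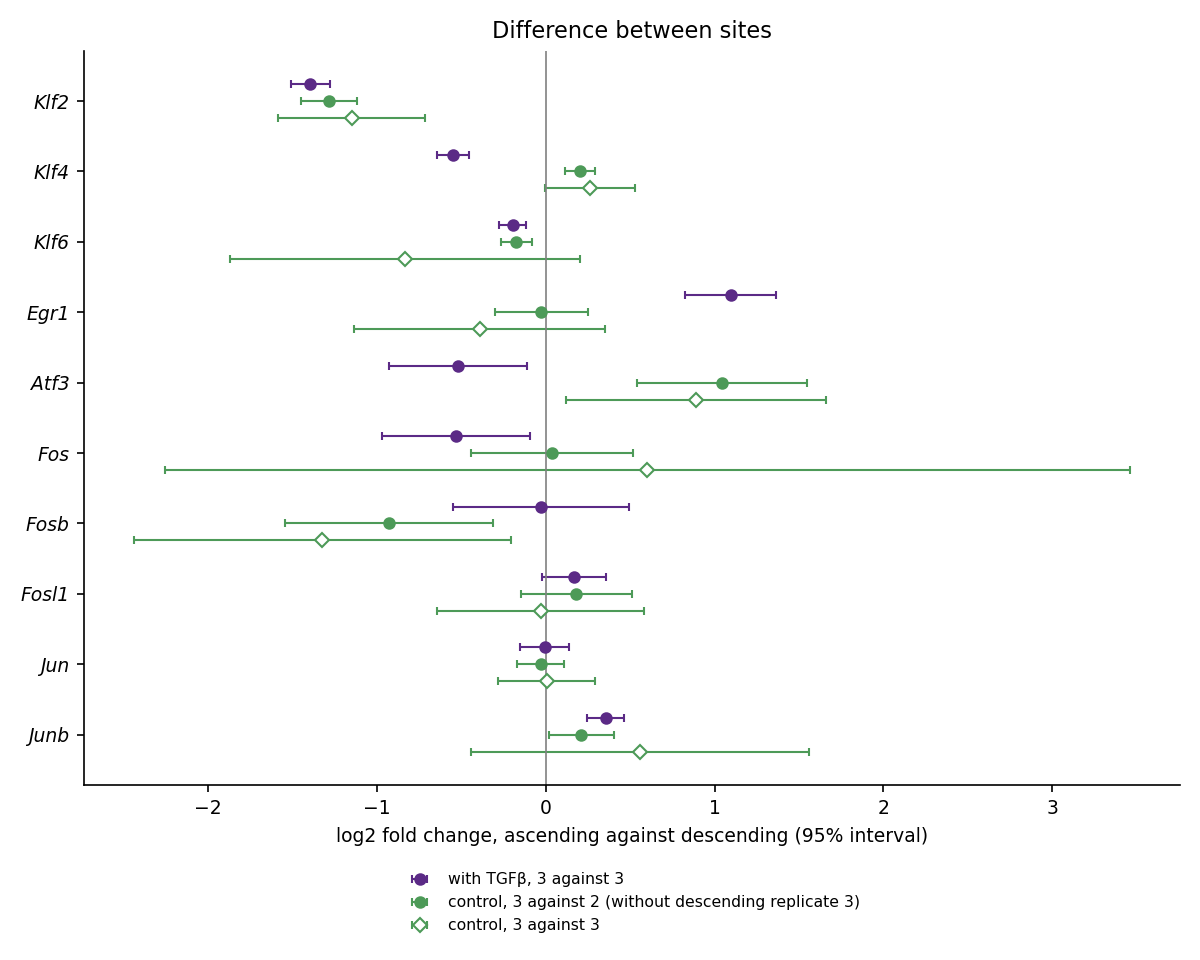
Log2 fold difference between ascending and descending fibroblasts of each of the 10 genes with its 95% interval, with TGFβ (3 against 3), in controls without descending replicate 3 (3 against 2) and in controls with it (open diamonds). Klf2 lies on the left in all fits, while Klf4 and Atf3 lie right of 0 in controls and left of 0 with TGFβ.

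Levels of different genes were compared as normalized CPM per kb of exon, with the exons of all annotated transcripts of a gene merged. The order depends on these lengths, and the level of *Fosl1* may hold reads of *Ccdc85b*. In ascending control fibroblasts the order was *Klf4* at 107 ± 3.08 (SD, n = 3), *Klf6* at 51.7 ± 1.55, and then *Junb* at 13.8 ± 1.33, *Klf2* at 12.1 ± 1.11 and *Jun* at 12.1 ± 0.803, whose ranges overlapped. *Fosl1* followed at 5.89 ± 0.927, *Egr1* at 3.24 ± 0.294 and *Atf3* at 2.65 ± 0.769 overlapped, and *Fos* at 1.04 ± 0.094 and *Fosb* at 0.177 ± 0.034 were last. In ascending TGFβ fibroblasts *Klf6*, at 44.8 ± 0.948, took the top place from *Klf4*, at 36.7 ± 0.750, and *Junb*, at 32.8 ± 1.22, stood next to it without overlap. In descending TGFβ fibroblasts *Klf4*, at 54.1 ± 3.75, and *Klf6*, at 51.6 ± 1.72, overlapped, and *Klf2*, at 38.8 ± 1.48, stood above *Junb*, at 25.8 ± 1.78. The descending controls without replicate 3 ran from *Klf4*, at 94.9 ± 4.08 (SD, n = 2), through *Klf6*, at 59.3 ± 2.07, and *Klf2*, at 30.0 ± 2.79, down to *Fosb* at 0.342 ± 0.044. With replicate 3 the mean of *Klf6* there was 91.5 ± 55.9 (SD, n = 3).

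AP-1 dimers draw on all 7 FOS and JUN genes, so the share of each in their summed level per kb was computed, with *Fosl2* and *Jund* beside the 5 above. In ascending fibroblasts *Junb* made up 13.1% ± 0.689 (SD, n = 3) of the sum in controls and 31.7% ± 0.782 with TGFβ. Over the same comparison *Jund* went from 46.1% ± 2.16 to 30.9% ± 0.864 and *Fosl2* from 22.6% ± 1.32 to 18.6% ± 0.572. The sum itself was 106 ± 5.79 normalized CPM per kb in ascending controls and 103 ± 1.90 with TGFβ. The share of *Junb* in every TGFβ library was thus above that in every control library, while the sums overlapped.

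In descending fibroblasts the share of *Junb* was 12.0% ± 2.99 in the 3 controls, 13.7% ± 1.05 (SD, n = 2) without replicate 3, and 28.5% ± 0.868 (SD, n = 3) with TGFβ. The share of *Jund* was 41.5% ± 1.84 in the controls without replicate 3 and 31.4% ± 2.06 with TGFβ, and that of *Jun* was 14.1% ± 0.569 and 11.6% ± 0.404. With replicate 3 the control shares were 36.2% ± 9.35 (SD, n = 3) for *Jund*, which was at 25.5% in that library and so below every descending TGFβ library, and 17.4% ± 5.63 for *Jun*. *Fos* and *Fosb* made up at most 1.498% and 1.39% of the sum in any library. The shares are parts of a whole and describe messages, not proteins, and no test was attached to them. They depend on the merged exon lengths, and the share of *Fosl1* may hold reads of *Ccdc85b*.

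**Figure D4:**
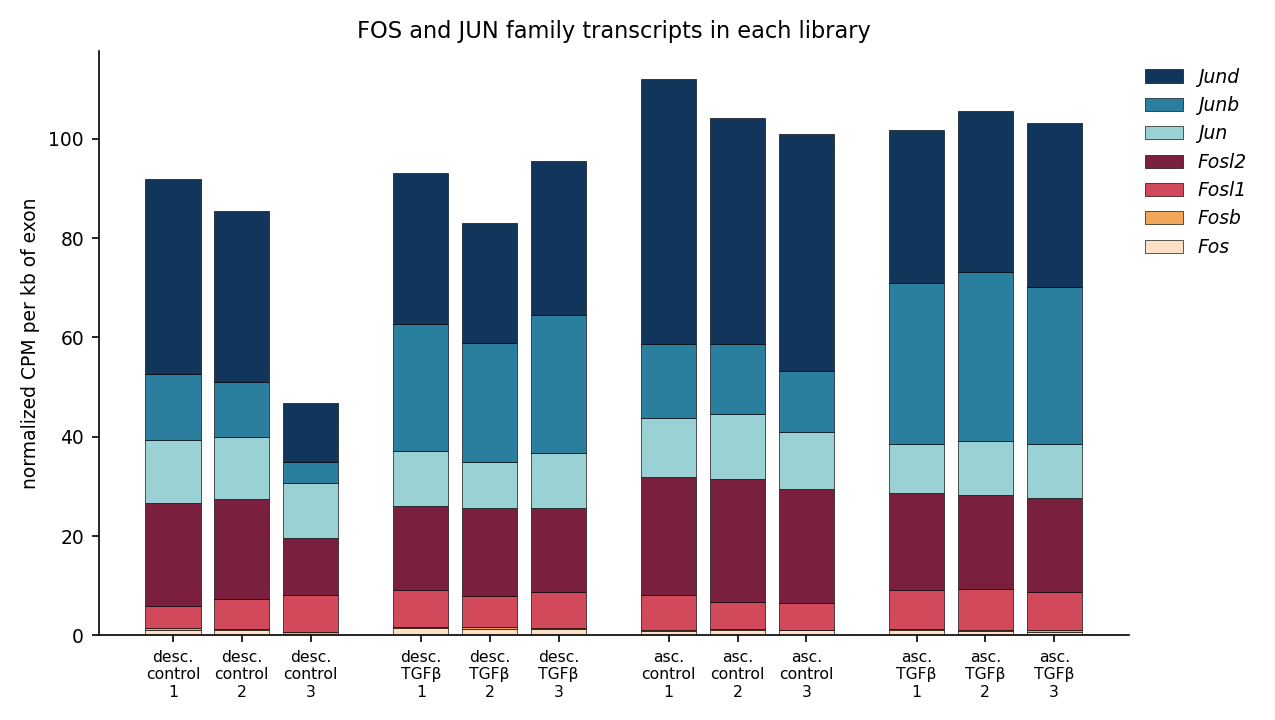
Summed level of the 7 FOS and JUN genes in normalized CPM per kb of exon (vertical axis, from 0) in each of the 12 libraries, with each segment the level of a single gene. The Junb segment is larger and the Jund segment smaller in the ascending TGFβ libraries than in the ascending controls, and descending control replicate 3 has the lowest sum, at 46.7.

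Related genes were counted from 5 further lists, with all values below on the log2 scale. Beside these counts, 28.2% of all genes tested rose with TGFβ and 27.6% fell in ascending fibroblasts. With the 6 descending libraries 3.59% rose and 4.48% fell, and without control replicate 3, 26.6% rose and 26.3% fell. Of the 12 other AP-1 and small MAF genes, 8 were tested in ascending fibroblasts, 2 rose and 4 fell, and the list's median log2 fold change was -0.15. The 3 with the lowest adjusted p were *Mafk*, at 0.47 (SE 0.04, adjusted p = 9.97e-09), *Jund*, at -0.62 (SE 0.06, adjusted p = 8.74e-08), and *Maf*, at -1.33 (SE 0.13, adjusted p = 1.57e-07). *Maf* is also a macrophage factor, and the macrophage marker sums were highest in the 3 ascending controls, whose part in this value was not tested. The level of *Maf* was 13.0 to 16.1 normalized CPM over the ascending controls, whose macrophage sums were 56.2 to 359, and 36.6 to 87.1 over the descending controls, whose macrophage sums were 27.0 to 50.04. Both 87.1 and 27.0 belonged to descending control replicate 3, and the macrophage sums of the other descending controls were 42.6 and 50.04. In descending fibroblasts 1 rose and 2 fell with the 6 libraries, *Maf* and *Mafk* among them, at -2.48 (SE 0.41, adjusted p = 0.0204) and 1.30 (SE 0.24, adjusted p = 0.0273), and 4 rose and 4 fell of 8 without control replicate 3, with *Maf* at -1.92 (SE 0.10, adjusted p = 1.92e-16) and *Mafk* at 1.09 (SE 0.06, adjusted p = 7.12e-16).

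Of the 14 other ATF and CREB genes, all were tested, and in ascending fibroblasts 7 rose and 1 fell. *Creb3l2* and *Creb3l1*, transmembrane factors released to raise secretory capacity, rose by 1.71 (SE 0.03, adjusted p = 1.27e-16) and 1.12 (SE 0.05, adjusted p = 3.41e-12), and *Atf4*, a factor of the amino acid and stress response, by 0.45 (SE 0.04, adjusted p = 9.82e-09). In descending fibroblasts *Creb3l2* and *Atf4* passed with the 6 libraries, at 1.32 (SE 0.16, adjusted p = 0.00809) and 0.90 (SE 0.15, adjusted p = 0.0191), while *Creb3l1* was at 0.93 (SE 0.27, adjusted p = 0.102). Without control replicate 3 the list had 7 that rose and 5 that fell, with *Creb3l2* at 1.47 (SE 0.06, adjusted p = 1.22e-18), *Creb3l1* at 1.29 (SE 0.06, adjusted p = 4.54e-18) and *Atf4* at 0.79 (SE 0.05, adjusted p = 6.59e-14). *Atf3* and these relatives thus did not share a direction in ascending fibroblasts. The interaction without that replicate was -0.33 for *Atf4* (SE 0.06, adjusted p = 1.65e-04), and with the 12 libraries it was -0.45 (SE 0.15, adjusted p = 0.279).

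Of the 5 other EGR genes and NAB corepressors, 4 were tested. In ascending fibroblasts 1 rose and 2 fell. In descending fibroblasts 1 rose with the 6 libraries and the other 3 did not pass, and without control replicate 3, 1 rose and 3 fell. *Egr2*, a close relative of *Egr1*, rose by 3.01 (SE 0.22, adjusted p = 4.85e-09) in ascending fibroblasts and by 2.61 (SE 0.24, adjusted p = 0.00368) with the 6 descending libraries, or 2.69 (SE 0.21, adjusted p = 3.56e-12) without control replicate 3. *Nab2*, a corepressor that EGR factors themselves induce, fell by 0.59 (SE 0.06, adjusted p = 1.69e-07) in ascending fibroblasts, and *Egr3* by 0.57 (SE 0.20, adjusted p = 0.0216). In descending fibroblasts without control replicate 3, *Egr3* fell by 1.48 (SE 0.12, adjusted p = 2.05e-11) and *Nab2* by 0.44 (SE 0.06, adjusted p = 7.84e-07). With the 6 descending libraries *Egr3* was at -1.18 (adjusted p = 0.113) and *Nab2* at -0.14 (adjusted p = 0.850), which did not pass. *Egr2* therefore rose at both sites, whereas *Egr1* did at neither.

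Of the 14 other KLF genes, 11 were tested, and in ascending fibroblasts 3 rose and 4 fell. *Klf3*, a repressor of the family, fell by 0.96 (SE 0.03, adjusted p = 2.29e-13), *Klf9* by 0.68 (SE 0.05, adjusted p = 3.99e-09) and *Klf15*, a regulator of metabolism, by 1.46 (SE 0.19, adjusted p = 6.36e-06). In descending fibroblasts without control replicate 3, 4 rose and 4 fell, among them *Klf3* at -0.83 (SE 0.05, adjusted p = 6.54e-15), *Klf15* at -1.79 (SE 0.22, adjusted p = 6.84e-08) and *Klf8* at 1.73 (SE 0.23, adjusted p = 1.61e-07). With the 6 libraries edgeR called 0 of the 11, with an unadjusted p under 0.05 for 2, and DESeq2 called 1, which was lower. In the edgeR fit the 3 genes above did not pass, *Klf3* at -1.33 (adjusted p = 0.0765), *Klf15* at -1.38 (adjusted p = 0.228) and *Klf8* at 2.27 (adjusted p = 0.265). Between sites with TGFβ, *Klf7* and *Klf9* were lower in ascending fibroblasts, at -0.71 (SE 0.08, adjusted p = 3.59e-08) and -0.36 (SE 0.05, adjusted p = 3.26e-06), and *Klf12* was higher, at 1.54 (SE 0.23, adjusted p = 3.3e-06).

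Of the 34 other immediate early genes, 30 were tested in ascending fibroblasts, 16 rose and 9 fell, and the list's median log2 fold change was 0.33. *Ptgs2*, the inducible cyclooxygenase, rose by 4.28 (SE 0.05, adjusted p = 3.74e-19), *Ctgf*, a matricellular TGFβ target, by 1.65 (SE 0.03, adjusted p = 1.0e-16), and *Gadd45b*, a stress and growth arrest gene, by 1.95 (SE 0.05, adjusted p = 4.93e-15). With the 6 descending libraries 7 rose and 4 fell of 32, with *Ctgf* at 2.14, *Zfp36l2*, which promotes decay of messages, at -1.48 and *Il6* at 2.99. Without control replicate 3, 17 rose and 8 fell, with *Ctgf* at 2.03 (SE 0.05, adjusted p = 2.04e-24), *Zfp36l2* at -1.48 (SE 0.05, adjusted p = 1.13e-20) and *Il6* at 3.12 (SE 0.14, adjusted p = 7.69e-18). In the interaction over the 12 libraries *Tnfaip3*, an inhibitor of NF-κB signalling, was the single gene of the list called, at 0.79 (SE 0.13, adjusted p = 0.0218), and it was at 0.75 (SE 0.11, adjusted p = 2.13e-05) without that replicate. *Tnfaip3* was also higher in ascending fibroblasts in controls, at 0.90 (SE 0.13, adjusted p = 0.024) with the 6 libraries and 0.95 (SE 0.07, adjusted p = 2.89e-07) without the replicate, and with TGFβ, at 1.69 (SE 0.08, adjusted p = 1.73e-16).

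**Figure D5:**
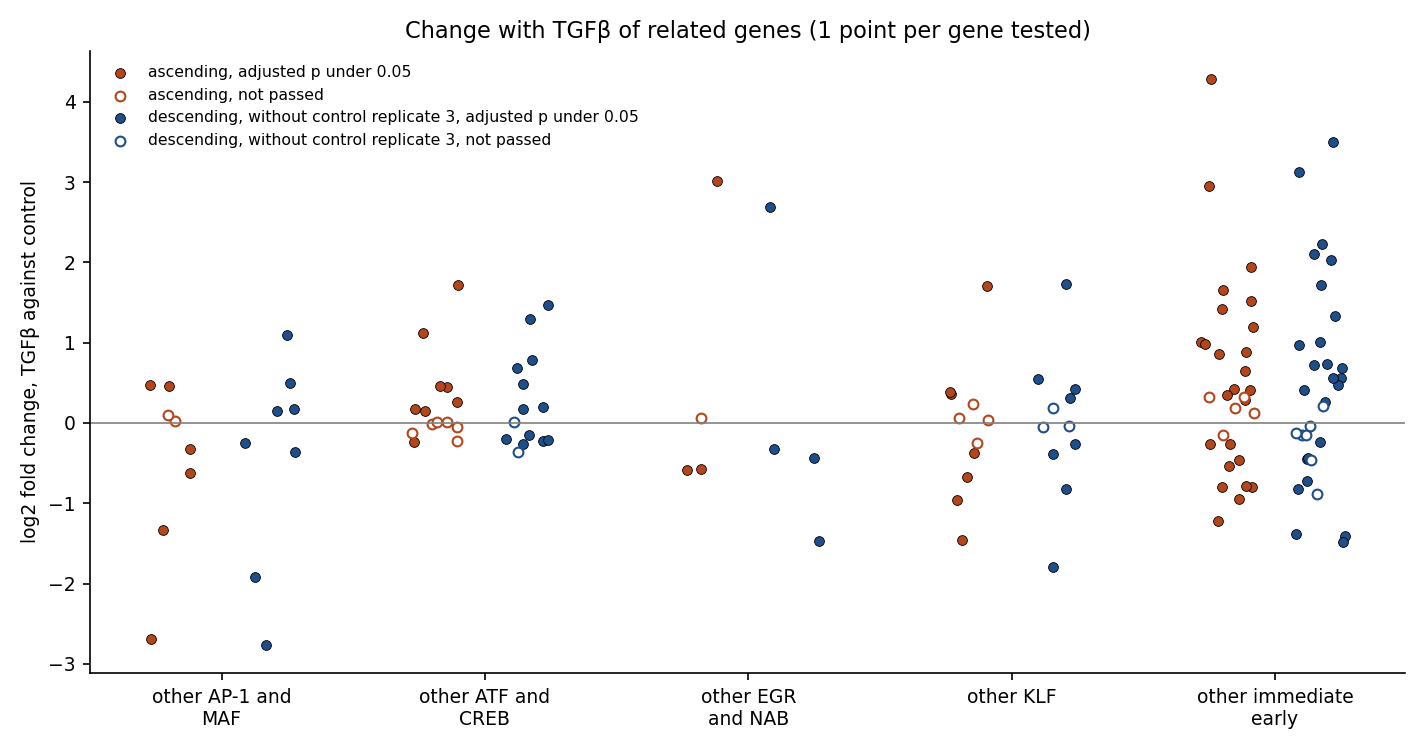
Log2 fold change with TGFβ (vertical axis) of the related genes tested, 1 point per gene, in the 5 lists, in ascending fibroblasts and in descending fibroblasts without control replicate 3, with filled points for an adjusted p under 0.05. Each list has points above and below 0, and the highest point is Ptgs2 in ascending fibroblasts, at 4.28.

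The genes closest in pattern were those with the smallest root mean square difference of centred log2 CPM over the 11 libraries other than descending control replicate 3, among 14637 genes. For *Klf4* these were *Pik3ip1*, at 0.091, *Dclk1*, at 0.097, and *Pdlim2*, at 0.102, against a spread of *Klf4* itself of 0.636. For *Klf2* they were *Fhl2*, *Serpinf1* and *Nfatc4*, at 0.115 to 0.145, and for *Junb* they included *Las1l*, at 0.108, and *Eaf1*, at 0.126. For *Egr1* they were *Ndc80*, *Cep55* and *Bub1*, at 0.121 to 0.125 against its own spread of 0.537, and over the 12 libraries *Cep55*, *Ndc80* and *Top2a*. *Atf3* had more distant neighbours, *Cmklr1*, *Mgp* and *Lgals3*, at 0.200 to 0.249 against its own spread of 0.484. For *Klf4* and *Junb* no gene of the 3 nearest over the 12 libraries was among the 3 nearest over the 11.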

How the data were processed

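The authors aligned reads to mm10 with STAR and deposited raw counts per gene symbol from featureCounts, 1 column per library, without normalization, and the processing notes also name FastQC and DESeq2. Tool versions, the annotation, the strand setting and the treatment of reads that match several genes are not given in the sources used here. The 12 columns were matched to samples by library name, and groups follow the sample titles.

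Counts were analysed with R 4.3.3, edgeR 4.0.16 and DESeq2 1.42.0, and described with Python 3.11.15, pandas 2.3.3, numpy 2.4.6 and matplotlib 3.10.9. The main test was edgeR's two-sided quasi-likelihood F-test with TMM normalization and filterByExpr (minimum count 10, minimum total 15), fitted to the whole table for the groups compared, with Benjamini-Hochberg adjustment over all genes tested. A gene passed at an adjusted p under 0.05. The interaction used all 12 libraries, and positive values mean a more positive change in ascending fibroblasts. Normalized CPM are CPM computed from the TMM-scaled library total. Gene positions, exon lengths and shared 50-base exon sequences came from GENCODE vM21 (GRCm38), and promoter windows from RefSeq without the 50 bases after the start. On simulated data with 200 genes changed 2-fold, the edgeR fits recovered 98.5 to 100% of them, with 2.91 to 5.21% false calls. The simulation gave every library the same small spread, held no library like descending control replicate 3 and changed only well-counted genes. These rates therefore need not hold for the fits reported here or for genes with low counts.

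The 10 genes, the 5 lists of related genes, the marker lists and the tests were chosen with earlier results of these data known. The 10 genes are named in every comparison. Of each other list, the counts with TGFβ in ascending fibroblasts and in descending fibroblasts without control replicate 3 are given and up to 3 called genes with the lowest adjusted p, with further called genes of the other comparisons, and the nearest genes in pattern are the 3 with the smallest root mean square difference of log2 CPM (prior count 2, centred). *Maf* was set beside the macrophage markers after its values were seen. Some genes that these rules select are not reported here. Alternatives tried were the Wald test of DESeq2, its size factors within edgeR, an unfiltered table, a filter of at least 10 counts per library, the replicate number as a block, a single fit to the 12 libraries, and fits lacking each library in turn. Leaving out descending control replicate 3 together with ascending control replicate 2 was chosen after seeing the data. No protein sequences were used here.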

Additional observations from a re-analysis of the deposited data

Results flagged for a closer look

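With the 12 libraries, edgeR called a difference between the sites in the change with TGFβ for 1 of the 10 genes, *Klf4*, and for 1 of the related genes, *Tnfaip3*. DESeq2 called 3 of the 10 genes, *Klf4*, *Egr1* and *Atf3*, and among the other immediate early genes 3 with a more positive and 3 with a more negative change in ascending fibroblasts. *Klf4* differed by -0.81 on the log2 scale with the 12 libraries (SE 0.12, adjusted p = 0.0146 by edgeR's quasi-likelihood test of the interaction), with a lower level in 3 of 3 TGFβ libraries than in any control library at each site. *Tnfaip3*, chosen from the list of other immediate early genes because it passed, differed by 0.79 with the 12 libraries (SE 0.13, adjusted p = 0.0218) and by 0.75 without descending control replicate 3 (SE 0.11, adjusted p = 2.13e-05). *Egr1* differed by 1.13 without descending control replicate 3 (SE 0.20, adjusted p = 2.36e-04) and by 1.49 with it (adjusted p = 0.125). *Atf3* differed by -1.56 without that replicate (SE 0.31, adjusted p = 7.52e-04) and by -1.42 with it (adjusted p = 0.117). Without that replicate further related genes were called, 8 with a more positive and 5 with a more negative change in ascending fibroblasts of 32 other immediate early genes, 1 and 2 of 14 ATF and CREB genes, 1 and 1 of 9 AP-1 and small MAF genes, 2 of 4 EGR and NAB genes, all positive, and 1 of 11 KLF genes, which was negative. The called gene of each list with the lowest adjusted p was *Dusp1* at -0.71 (SE 0.08, adjusted p = 2.8e-07), *Atf4* at -0.33 (SE 0.06, adjusted p = 1.65e-04), *Mafk* at -0.62 (SE 0.07, adjusted p = 3.3e-07), *Nab1* at 0.40 (SE 0.08, adjusted p = 9.96e-04) and *Klf9* at -0.29 (SE 0.08, adjusted p = 0.00988). With the 12 libraries these 5 did not pass, at -0.91, -0.45, -0.83, 0.70 and -0.16 in the same order (adjusted p = 0.138 to 0.671). Over all genes 13.5% were called without the replicate and 0.806% with it. The causes were not tested.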

How the results depend on the processing

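The number of the 10 genes that passed in ascending fibroblasts, 8, was 3 with the 12 libraries in one fit. The log2 values of the 5 calls lost there hardly moved, *Klf2* from 0.27 to 0.27, *Klf6* from -0.22 to -0.21, *Fosb* from 0.76 to 0.76, *Fosl1* from 0.40 to 0.41 and *Jun* from -0.22 to -0.22, while their SE was 0.03 to 0.27 with the 6 libraries and 0.10 to 0.34 with the 12. In descending fibroblasts the 1 became 3 with DESeq2 (*Klf4*, *Egr1* and *Junb*), 2 with at least 10 counts in every library, 4 with the 12 libraries in one fit, and 0 with the replicate number as a block (replicate block). Between sites in controls the 1 became 3 with the 12 libraries in one fit and 0 with the replicate block. Between sites with TGFβ the 6 became 3 with the 12 libraries in one fit, and in the interaction the 1, *Klf4*, became 3 with DESeq2, with *Egr1* and *Atf3*. With libraries left out in turn the numbers ranged from 0 to 7 in descending fibroblasts, from 0 to 5 between sites in controls and from 0 to 3 in the interaction, and the highest of each was reached without descending control replicate 3. The call of *Klf4* in descending fibroblasts and that of *Klf2* between sites in controls were lost with any other library left out. The count of genes called in descending fibroblasts was 1115, and 2242 with DESeq2, 3570 with the 12 libraries in one fit, 95 with the replicate block and 7576 without descending control replicate 3. Between sites in controls it was 374, and 1034, 1545, 0 and 4631, in the same order. In ascending fibroblasts it was 7767 and 2338 with the 12 libraries in one fit, and between sites with TGFβ 4963 and 1106. In the interaction it was 118, and 419 with DESeq2, 56 without the low-count filter, 50 with the replicate block and 2022 without descending control replicate 3. Same-numbered libraries deviated from their group means with weak correlations, of -0.026 to 0.065 over 14637 genes. In 3 of the 4 pairs of groups, 0 to 2 of 6 libraries correlated best with their own number. Between sites in controls 5 of 6 did, and the other was at 0.0305 with its own number and 0.0374 with another. With 3 libraries per group, whether same-numbered libraries share animals cannot be told from these values.

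Some log2 values, none of them called in the comparison as reported, changed sign, and the cause was not tested. Not all were near 0, since the main values were 0.63 for *Klf6* in the interaction and 0.60 for *Fos* and -0.39 for *Egr1* between sites in controls. *Jun* in the interaction was 0.0029 with at least 10 counts in every library. With libraries left out, *Egr1* ranged from -0.10 to 0.063 with TGFβ in ascending fibroblasts. Between sites in controls *Egr1* ranged from -0.61 to 0.029, *Fos* from -0.039 to 1.02, *Fosl1* from -0.20 to 0.24 and *Jun* from -0.084 to 0.051. Between sites with TGFβ *Fosb* ranged from -0.13 to 0.19 and *Jun* from -0.091 to 0.037. In the interaction *Klf6* ranged from -0.019 to 0.88, *Fosl1* from -0.069 to 0.38, *Jun* from -0.096 to 0.082 and *Junb* from -0.49 to 0.16. Depth limits *Fos*, *Fosb* and *Atf3* most, at 153 counts or fewer per library.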
